A study of Homo sapiens with 24 samples.

Results

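Dopaminergic neurons of the LUHMES line were given 1 µM rotenone for 6 h and compared with neurons that received the vehicle alone, 1% DMSO. LUHMES is an immortalised human mesencephalic precursor line that stops dividing under tetracycline and takes on a dopaminergic neuron type. Of the 24 libraries in the count matrix, the 3 whose column names contain Rotenone were set against the 3 whose names contain DMSO, and all 18852 genes that passed an expression filter, of 58051 in the matrix, were tested. Toxicant stocks were made in DMSO, and the 1% given to the controls was meant to match the treatments, per the labels. For a second comparison the 3 libraries of neurons given 5 µM MPP, the methylphenylpyridinium ion, for 6 h were used, at a dose that differs from that of rotenone. All groups come from 1 line, and the cells were differentiated with cAMP and GDNF.

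Rotenone is a plant isoflavonoid that blocks the ubiquinone site of mitochondrial complex I, and MPP, which enters dopaminergic neurons through the dopamine transporter, acts on the same complex. Rotenone also binds tubulin and keeps microtubules from assembling, an action that MPP does not share in the usual account. Cells hold the pool of free tubulin dimers steady through their own mRNA: when free dimers accumulate, the ribosome making a new tubulin chain is recognised at its first residues by TTC5, and the tubulin mRNA is degraded.

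Values are given as counts per megaread (CPM) of the scaled library total, fold changes on the log2 scale, and adjusted p-values, by the method of Benjamini and Hochberg over all genes tested and at a threshold of 0.05, from edgeR's quasi-likelihood F test. The p-values measure the spread between the samples, and nothing in the labels says that these came from separate cultures. The spread is pooled over 8 groups of 3 libraries, with 16 residual degrees of freedom. The rotenone libraries held 24.7, 9.69 and 12.4 megareads and the DMSO libraries 14.3, 24.7 and 33.4. Rotenone replicate 1 stood apart from its group, so results are also given without it. A called change with no such value beside it was called in that fit too. Among 9890 genes of at least 10 CPM, it deviated by more than 0.5 on the log2 scale from the mean of the other 2 rotenone libraries at 1551 genes (15.7%), against 478 and 477 genes for replicates 2 and 3 and 9 to 73 for the DMSO libraries. The deviation followed the GC content of the transcript. Genes of 35 to 40% GC lay a median of 0.34 above the other 2 rotenone libraries on the log2 scale and genes of 60 to 65% GC lay at -0.41, and across 9880 genes, which are not independent replicates, Spearman's rho of deviation with GC was -0.766. In the 3 DMSO libraries this rho lay between -0.287 and 0.198. It was 0.551 and 0.585 in rotenone replicates 2 and 3, each set against a mean that holds replicate 1, and 0.521, 0.376 and -0.656 in MPP replicates 1, 2 and 3.

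**Figure D1:**
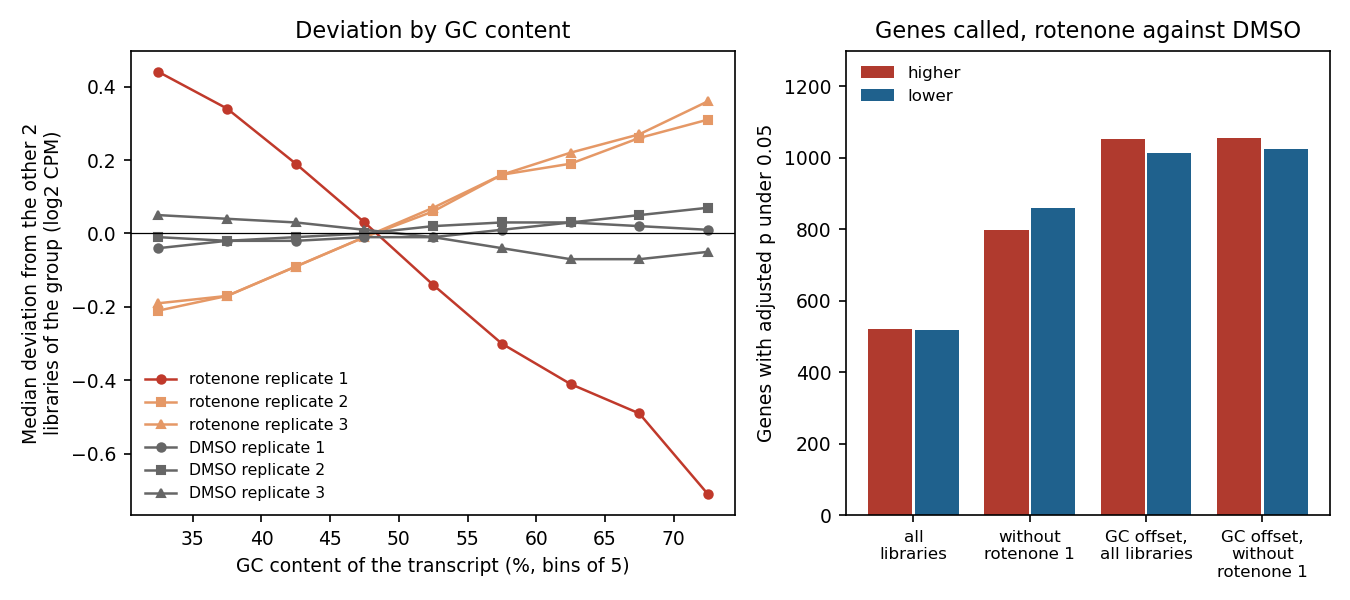
Left: median deviation of each library from the other 2 libraries of its group (log2 CPM) against the GC content of the transcript (%), in bins of 5; right: number of genes called higher and lower in rotenone against DMSO in 4 fits. Rotenone replicate 1 falls from 0.44 to -0.71 across the bins while the DMSO libraries stay within 0.07 of 0, and with the GC trend taken out the fits with and without that library call 2067 and 2083 genes.

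Rotenone changed 1041 genes (5.52% of those tested), 521 of them higher (2.76%) and 520 lower (2.76%). The median size of these changes was 0.54 on the log2 scale, or 1.45-fold, and 60 genes rose and 123 fell by at least 2-fold. Without rotenone replicate 1, 799 genes were higher (4.24%) and 861 lower (4.57%). These shares over all genes are the ones to set beside the counts of list members below. The lists were chosen with earlier results of these data known, so those counts describe the lists and are no independent evidence. Of the 1041 genes, 763 were called in the same direction in both fits, 402 higher and 361 lower, 278 were called only with replicate 1, and no called gene changed sign. The genes called without replicate 1 were divided by GC content: the higher ones had a median of 55.1% and the lower ones 43.4%, against 48.6% over all genes tested, whereas with all libraries these medians were 48.4% and 49.6%. When the smooth trend of each library with GC content was entered as an offset, a fit chosen after the data were seen, 1053 genes were higher (5.59%) and 1014 lower (5.38%), and 1040 of the 1041 genes remained called. The part of GC content in the calls was otherwise not tested. By direct inspection, the 3 rotenone libraries lay all above or all below the 3 DMSO libraries at 20.9% of the genes tested.

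Tubulin transcripts fell together. Of 12 alpha and beta tubulin genes, 11 passed the filter (TUBA8 did not), 10 of these fell and none rose, and the same 10 fell without rotenone replicate 1 and with the GC offset. Their median change was -1.15 on the log2 scale, against -0.01 over all genes tested, and -0.96 without replicate 1. The tubulin genes were among the patterns already known from these files when the list was made, so the count describes them and is no independent evidence. The first 10 codons of the coding sequences are shown because that stretch encodes the residues by which nascent tubulin is recognised in autoregulation. The first 4 codons are in capitals, and the sequences are from the GENCODE 29 transcripts of GRCh38.
TUBA1A: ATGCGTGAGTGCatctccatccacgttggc
TUBA4A: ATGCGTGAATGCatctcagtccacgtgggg
TUBB: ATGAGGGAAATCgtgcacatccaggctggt
TUBB2A: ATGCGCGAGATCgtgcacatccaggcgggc
TUBB3: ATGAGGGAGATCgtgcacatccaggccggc
TUBB4A: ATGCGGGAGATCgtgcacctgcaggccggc
TUBG1: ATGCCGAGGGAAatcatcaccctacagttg
TUBA1B and TUBA1C share all 30 bases with TUBA1A, so their first codons cannot separate their reads. TUBB3 and TUBB6 share the first 4 codons, as do TUBB and TUBB4B, and gamma tubulin (TUBG1) starts differently from the alpha and beta genes.

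TUBA1A, the main alpha tubulin of young neurons (chr12:49184796-49189324, minus strand), stood at 3120, 3750 and 3580 CPM in the rotenone libraries and at 11600, 11400 and 10700 CPM in the DMSO libraries. Every rotenone library was far below every DMSO library, and also below all of the other 21 libraries of the series, whose lowest value was 8080 CPM. The fall was 1.69 on the log2 scale (95% interval -1.85 to -1.53, edgeR adjusted p 9.48e-16), to 0.31 times the DMSO level, and it was -1.62 without replicate 1 (edgeR adjusted p 3.04e-15). TUBB2A, a beta tubulin of neurons, had 100, 119 and 129 CPM with rotenone and 362, 368 and 347 with DMSO, with no overlap between the groups. It fell by 1.63 (SE 0.1, edgeR adjusted p 2.6e-13) and by 1.53 without replicate 1. TUBB4A, a beta tubulin of the nervous system, had 4.53, 9.24 and 4.92 CPM with rotenone and 18.6, 22.9 and 19.7 with DMSO. Its log2 change of -1.78 was the lowest of the family, though its SE of 0.23 was also wider than that of TUBA1A or TUBB2A.

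TUBB4B, a beta tubulin found in most tissues, was at 99.7, 149 and 142 CPM with rotenone and at 362, 358 and 329 with DMSO. It fell by 1.43 (edgeR adjusted p 1.66e-09), and by 1.26 without replicate 1, in which it was lowest. TUBB was at 713, 826 and 850 CPM against 1680, 1660 and 1550, a log2 change of -1.04 (SE 0.07, edgeR adjusted p 3.9e-12). The other alpha genes moved the same way: the log2 changes of TUBA1B, TUBA1C and TUBA4A were -1.15, -1.17 and -0.72, with edgeR adjusted p of 4.12e-08, 6.7e-08 and 0.000491. The annotated TUBA1C gene overlaps TUBA1A on the opposite strand, and whether the counting used strand is not given in the sources used here. TUBB2B fell by 0.72 (edgeR adjusted p 5.95e-06) and TUBB6, a class V beta tubulin, by 0.51 (edgeR adjusted p 0.00355).

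TUBB3, the beta tubulin used as a neuron marker, was the member that did not pass. It stood at 42.9, 42.8 and 39.7 CPM with rotenone and at 63.5, 57.2 and 43.3 with DMSO, so the lowest DMSO library lay just above the rotenone libraries. Its change was -0.38 (95% interval -0.74 to -0.02, edgeR adjusted p 0.222), and -0.40 without replicate 1 (edgeR adjusted p 0.211). TUBB3 and TUBB6, which share their first 4 codons, had the smallest log2 changes of the 11 genes. Summed over the 11 genes, tubulin transcripts made up 5670 ± 552 CPM with rotenone and 15500 ± 632 with DMSO (mean ± SD, n = 3 each), 36.5% of the DMSO level. In the 18 libraries of the other 6 groups, MPP among them, the sum ranged from 11400 to 16000 CPM, above the highest rotenone library at 6010. The MPP libraries summed to 12400 ± 352 CPM (mean ± SD, n = 3), 79.9% of the DMSO level. Their highest sum was 12800 CPM, below the lowest DMSO library at 14800.

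**Figure D2:**
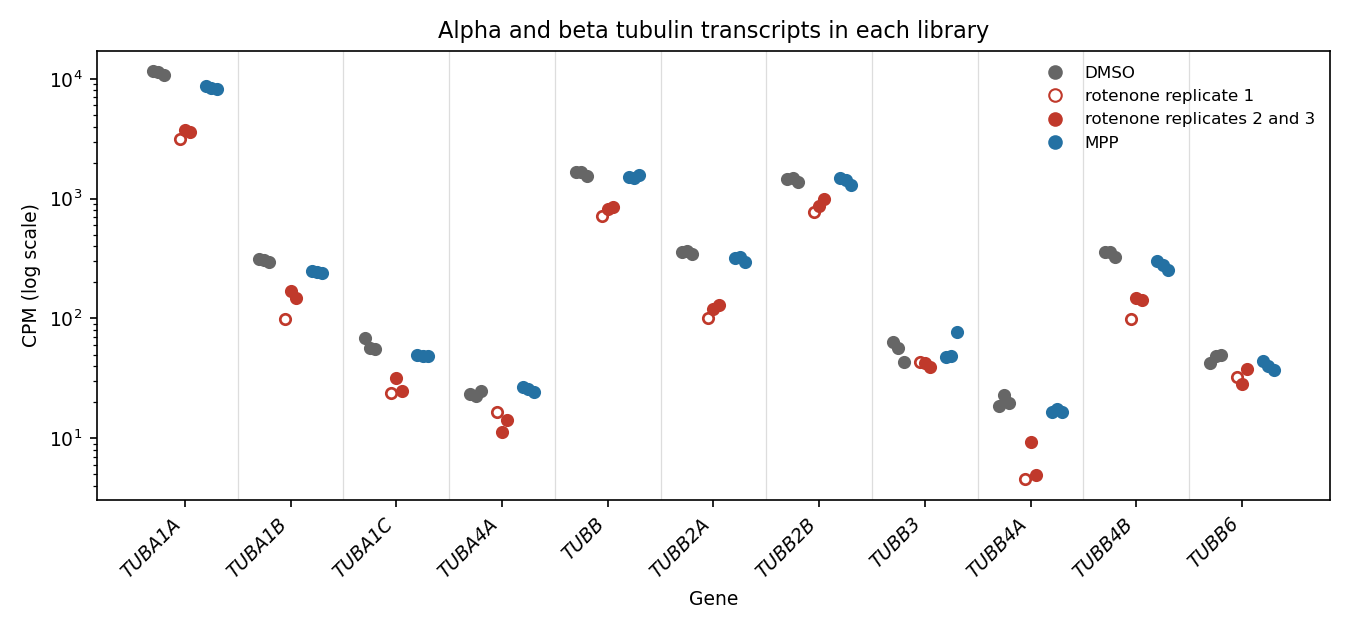
CPM (log axis) of the 11 tested alpha and beta tubulin genes in each DMSO, rotenone and MPP library; each point is 1 library, and the open circle is rotenone replicate 1. The rotenone libraries lie below the DMSO libraries at every gene, by the largest factor at TUBB4A, TUBA1A and TUBB2A and by the smallest at TUBB3.

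Genes that serve tubulin without being alpha or beta tubulins moved less by the median of each list. The exception was TUBG1, which fell by more than TUBA4A, TUBB2B, TUBB6 and TUBB3. Of 10 gamma, delta and epsilon tubulins and tubulin chaperones, 3 fell and none rose, with and without rotenone replicate 1, at a median of -0.13. Without rotenone replicate 3, DMSO replicate 1 or DMSO replicate 2, 1 fell. TUBG1, which nucleates microtubules at the centrosome, was at 33.2, 35.7 and 45.5 CPM with rotenone and at 70.8, 71.3 and 64.9 with DMSO. It fell by 0.86 (edgeR adjusted p 2.85e-05), and by 0.76 without replicate 1. TTC5, the ribosome-bound factor of tubulin autoregulation, fell by 0.38 (edgeR adjusted p 0.0124, and 0.0302 without replicate 1), and the call was lost without rotenone replicate 3, DMSO replicate 1 or DMSO replicate 2, and when the GC offset was combined with leaving out rotenone replicate 1 (adjusted p 0.105). TBCC, a cofactor of dimer folding, fell by 0.35 (edgeR adjusted p 0.0331). Of 23 microtubule-associated proteins and stathmins, 2 rose and 1 fell (median -0.04), and 2 rose and 3 fell without rotenone replicate 1. No fall was called without rotenone replicate 2 or 3 or without DMSO replicate 2 or 3. STMN4, a neuronal stathmin that binds tubulin dimers, rose by 0.56, TTL, which restores the last tyrosine of alpha tubulin, rose by 0.23, and MAPRE2, an end-binding protein, fell by 0.29. Of 24 kinesin and dynein subunits, KIF5B, a heavy chain of conventional kinesin, rose by 0.27 (edgeR adjusted p 0.0453), and DYNLL1, a dynein light chain, fell by 0.24 (edgeR adjusted p 0.0361), and neither was called without replicate 1 (adjusted p 0.215 and 0.0881). In that fit 1 other member of the list rose, DCTN2, and 1 other fell, PAFAH1B1.

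Genes of the DLK-JNK response, the kinase cascade that neurons run after axon damage or loss of microtubules, made up a second group. Of 22 tested, 5 rose and 2 fell, against 2.76% in each direction over all genes, and 9 rose and 1 fell when replicate 1 was left out. This list too was chosen with earlier results of these data known, so its count is a description and no independent evidence. The median change was 0.26, or 0.39 without that library. HRK, a BH3-only death gene induced by JNK in neurons deprived of trophic factor (chr12:116856144-116881441, minus strand), had 122, 121 and 114 CPM with rotenone and 26.9, 29.5 and 24.8 with DMSO. The rotenone libraries lay close together and stood above all of the other 21 libraries, whose highest value was 47.3 CPM. HRK rose by 2.14 (95% interval 1.88 to 2.39, edgeR adjusted p 2.6e-13), to 4.40 times the DMSO level, and by 2.12 without replicate 1.

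DUSP16, a phosphatase that acts on JNK and p38, had 109, 105 and 126 CPM with rotenone and 42.8, 47.3 and 42.4 with DMSO, and no other library of the series exceeded 77 CPM. It rose by 1.36 (SE 0.1, edgeR adjusted p 6.27e-11), and by 1.39 without replicate 1. JUN, the transcription factor that JNK phosphorylates, stood at 125, 146 and 182 CPM against 85.7, 89.2 and 84.6. All 3 rotenone libraries were above the DMSO libraries but spread more widely, and replicate 1 was the lowest of them. JUN rose by 0.80 (SE 0.12, edgeR adjusted p 3.83e-05), and by 0.92 without replicate 1. STMN4 and DDIT3, a stress transcription factor shared with the ATF4 list, also rose (0.56 and 0.88). The 2 members that fell were TUBB6 and DUSP4, a phosphatase of ERK and JNK (-0.39, edgeR adjusted p 0.0257), which was named after its value was seen and was not called without replicate 1 (adjusted p 0.1).

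The JUN promoter is shown because JUN acts on its own gene through a site of the form TGACATCA, which was searched for after the values were seen. In the RefSeq promoters of GRCh38.p14, searched on both strands from 250 bases before to 50 after each start, these letters occur in 2.61% of 35116 promoters and in 6 of the 21 promoters of the list, of which 1 belongs to a gene that rose. The match at JUN, in capitals, lies 67 to 60 bases upstream of the start on the minus strand, chr1:58784048-58784167. It is a match of letters only.
JUN: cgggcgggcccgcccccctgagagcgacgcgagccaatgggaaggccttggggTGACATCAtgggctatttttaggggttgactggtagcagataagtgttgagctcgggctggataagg

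Beyond this list, the genes with the highest folds were of varied kinds. The 15 with the highest fold, taken among genes called with and without replicate 1, ran from PDE10A (2.57) to GABRR1 (1.42). CREB5, a transcription factor of the CRE-binding family, had 71.2, 61.3 and 68.7 CPM with rotenone and 21.8, 17.5 and 20.3 with DMSO, a rise of 1.76 (edgeR adjusted p 3.89e-10). BDKRB2, the constitutive bradykinin receptor, had 105, 118 and 125 CPM against 46.0, 42.4 and 39.5, a rise of 1.45 (edgeR adjusted p 3.9e-12). In both genes the highest of the other 21 libraries, 60.8 and 87.0 CPM, stayed below the lowest rotenone library.

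BDNF, a neurotrophin, had 6.19, 3.99 and 3.94 CPM with rotenone and 1.42, 1.45 and 1.60 with DMSO. It rose by 1.67 (SE 0.35, edgeR adjusted p 0.00344), and by 1.40 without replicate 1, in which it was highest. BDNF overlaps its antisense gene, so reads of the 2 cannot be told apart without strand. PRDM1, a transcriptional repressor, rose by 1.66 (5.75 ± 1.61 against 1.79 ± 0.621 CPM, n = 3 each), and CMKLR1, the chemerin receptor, by 1.67 (5.38 ± 0.758 against 1.69 ± 0.365 CPM). ELFN2, a synaptic adhesion protein, rose from 0.854, 1.05 and 1.48 CPM to 4.45, 5.88 and 5.41. Its MPP libraries were higher still, at 18.9, 25 and 15.3 CPM. PDE10A, a phosphodiesterase of cyclic nucleotides that in the brain is typical of the striatum, had 4.57, 2.83 and 3.28 CPM against 0.142, 0.565 and 0.946, and its SE of 0.64 was wide. The others of the 15 were USH1C, LAYN, SFRP4, PRSS56, SLC16A6 and PABIR2, and their log2 changes ran from 1.43 to 2.32.

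**Figure D3:**
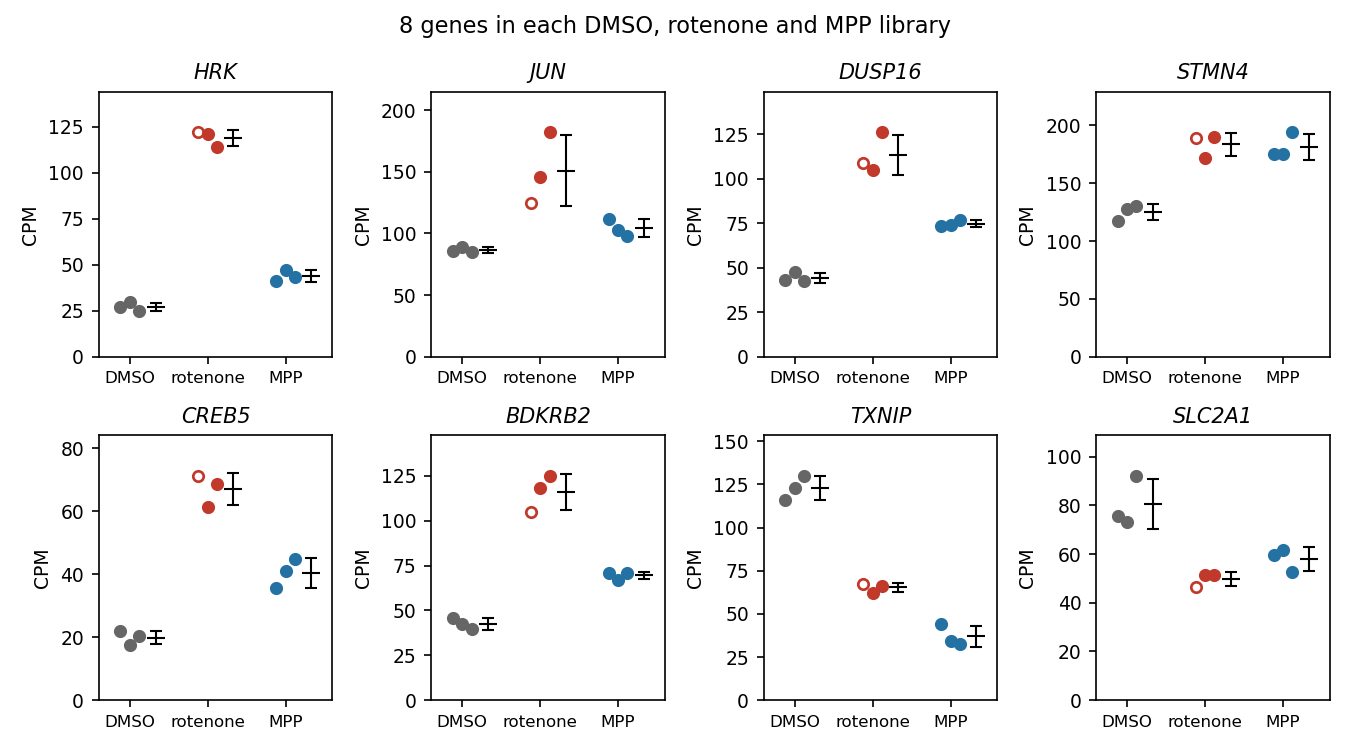
CPM of 8 genes in each DMSO, rotenone and MPP library; points are libraries, the open circle is rotenone replicate 1, and the bar beside each group is its mean with the SD (n = 3). HRK, DUSP16, CREB5 and BDKRB2 are highest in rotenone, with MPP between DMSO and rotenone, STMN4 is at 183 CPM in rotenone and 182 in MPP, and TXNIP falls from 123 to 65.3 with rotenone and further with MPP.

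The 15 genes that fell most, by the same rule, held 4 tubulins (TUBB4A, TUBA1A, TUBB2A and TUBB4B) and several genes of low level. DDIT4, an inhibitor of mTORC1 that stress and hypoxia induce elsewhere, had 10.8, 17.1 and 17 CPM with rotenone and 35.1, 33.4 and 41.2 with DMSO. It fell by 1.33 (SE 0.18, edgeR adjusted p 1.01e-05), and by 1.11 without replicate 1, in which it was lowest. PLEKHD1 had 3.56, 3.88 and 1.48 CPM with rotenone and 8.89, 9.29 and 8.99 with DMSO, a fall of 1.59 (edgeR adjusted p 3.49e-05). GPR39, a zinc-sensing receptor, fell by 1.35 from 7.31 ± 0.928 to 2.76 ± 0.783 CPM (n = 3 each), and CIART, a repressor of the circadian clock, by 1.70 from 4.66 ± 0.721 to 1.39 ± 0.256. The remaining 7, GPR62, MASP2, SRMS, PARGP1, XYLB, GPRASP1 and IL18BP, had means between 2.11 and 5.09 CPM in DMSO.

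Among genes that respond to glucose, TXNIP and ARRDC4 fell. TXNIP, an arrestin that blocks glucose uptake and is switched on by the MondoA-MLX pair when sugar phosphates are plentiful (chr1:145992435-145996600, minus strand), was at 67.5, 62.1 and 66.4 CPM with rotenone and at 116, 123 and 130 with DMSO. The groups were well apart, and TXNIP fell by 0.91 (SE 0.1, edgeR adjusted p 7.53e-07), and by 0.94 without replicate 1. ARRDC4, its paralog under the same control, had 9.59, 7.87 and 11.1 CPM against 21.8, 18.9 and 22.5, a fall of 1.14 (edgeR adjusted p 6.27e-06). In MPP the levels were 43.9, 34.4 and 32.6 CPM for TXNIP and 7.82, 7.5 and 7.55 for ARRDC4, so TXNIP was higher in rotenone than in MPP by 0.82 (edgeR adjusted p 5.89e-06), while the difference in ARRDC4 was 0.33 (edgeR adjusted p 0.199). The other 3 genes of the list, the transcription factors MLX, MLXIP and MLXIPL themselves, were not called. The TXNIP promoter is shown with its carbohydrate response element in capitals, searched as CACGNG and CNCGNG with 5 bases between them. It lies 88 to 72 bases upstream of the start, on the minus strand of chr1:145996580-145996729 in GRCh38.p14, and this form occurs in 0.501% of 35116 RefSeq promoters, searched on both strands. No match was found in the ARRDC4 window, which says only that these letters are not in it.
TXNIP: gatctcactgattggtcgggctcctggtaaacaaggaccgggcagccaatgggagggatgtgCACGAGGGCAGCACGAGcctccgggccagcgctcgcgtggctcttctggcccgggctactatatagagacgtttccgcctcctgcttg

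Of 24 genes of glycolysis and glucose transport 3 fell and none rose, at a median of 0.04. Leaving out replicate 1, 1 fell and 2 rose (GAPDH and ENO2, named after their values were seen). SLC2A1, the glucose transporter GLUT1, had 46.4, 51.5 and 51.3 CPM with rotenone and 75.8, 73.2 and 92.1 with DMSO. It fell by 0.70 (edgeR adjusted p 7.45e-05), and by 0.65 without replicate 1. HK2, the inducible hexokinase, had 11, 12.5 and 9.43 CPM against 16.8, 17 and 32, and DMSO replicate 3 held the high value. The call on HK2 (-1.02, edgeR adjusted p 0.0368) was lost without replicate 1 of rotenone (adjusted p 0.0529), as was that on PFKFB3, which makes the activator of phosphofructokinase (-0.37, adjusted p 0.0419 and then 0.0718).

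Targets of the hypoxia-inducible factor included 3 genes that fell and none that rose of 19 tested, at a median of -0.36, where 2.76% of all genes fell. EGLN3, an oxygen-sensing prolyl hydroxylase, had 2.71, 1.78 and 2.95 CPM with rotenone and 5.34, 5.45 and 6.71 with DMSO, and fell by 1.21 (edgeR adjusted p 0.00307). KDM3A, a histone demethylase, fell by 0.51 (edgeR adjusted p 0.00399) and EGLN1 by 0.34 (edgeR adjusted p 0.039), and the 3 were called without replicate 1 as well. In that fit 4 of the list fell, where 4.57% of all genes did. The call on EGLN1 was lost without rotenone replicate 2 or 3, without DMSO replicate 2 or 3, and with the replicate block. With the 2 groups fitted alone none of the 3 was called. The letters ACGTG, the core of the element these factors bind, occur on either strand in 15 of 25 promoters of the list and in 21.4% of all promoters, but in 1 of 4 promoters of the 3 genes that fell.

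RNAs of the mitochondrial genome gave 1 call against DMSO. Of 15, MT-ND1 fell and none rose, and their median change was -0.13, or -0.04 without replicate 1. The change was negative at 12 RNAs and positive at 3. At 6 RNAs every rotenone library lay below every DMSO library, where 20.9% of all genes lay all above or all below. With the GC offset 3 fell, with no low-count filter 4 fell, and without replicate 1 none was called. MT-ND1, a complex I subunit, had 7.12, 10.9 and 12.4 CPM with rotenone and 15.7, 17.3 and 18.6 with DMSO, and replicate 1 was the lowest. Its change of -0.81 (edgeR adjusted p 0.0305) was not called without replicate 1 (-0.57, adjusted p 0.135). The large ribosomal RNA, MT-RNR2, was at 10600, 14100 and 10800 CPM against 14400, 9850 and 9020, so the groups overlapped, a change of 0.10 (95% interval -0.25 to 0.44), and MT-RNR1 changed by -0.04 (95% interval -0.32 to 0.24). RNA was selected for polyadenylated transcripts and depleted of ribosomal RNA, steps that act on these 2 RNAs directly.

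In MPP the same RNAs stood elsewhere. MT-RNR2 was at 43400, 45000 and 66800 CPM and MT-RNR1 at 5810, 5750 and 8490, above every rotenone library. Rotenone was lower than MPP by 2.13 at MT-RNR2 (edgeR adjusted p 1.27e-09) and by 2.51 at MT-ND1 (edgeR adjusted p 7.88e-09). Of the 15 RNAs, 11 were lower in rotenone than in MPP and 3 were higher, at a median of -1.62, beside 3.69% and 3.05% of all genes tested. The 3 that were higher in rotenone were MT-CO1 (0.48), MT-CO3 (0.73), both subunits of cytochrome oxidase, and MT-ND3 (0.98), a complex I subunit. Each call in this paragraph was also made without replicate 1.

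**Figure D4:**
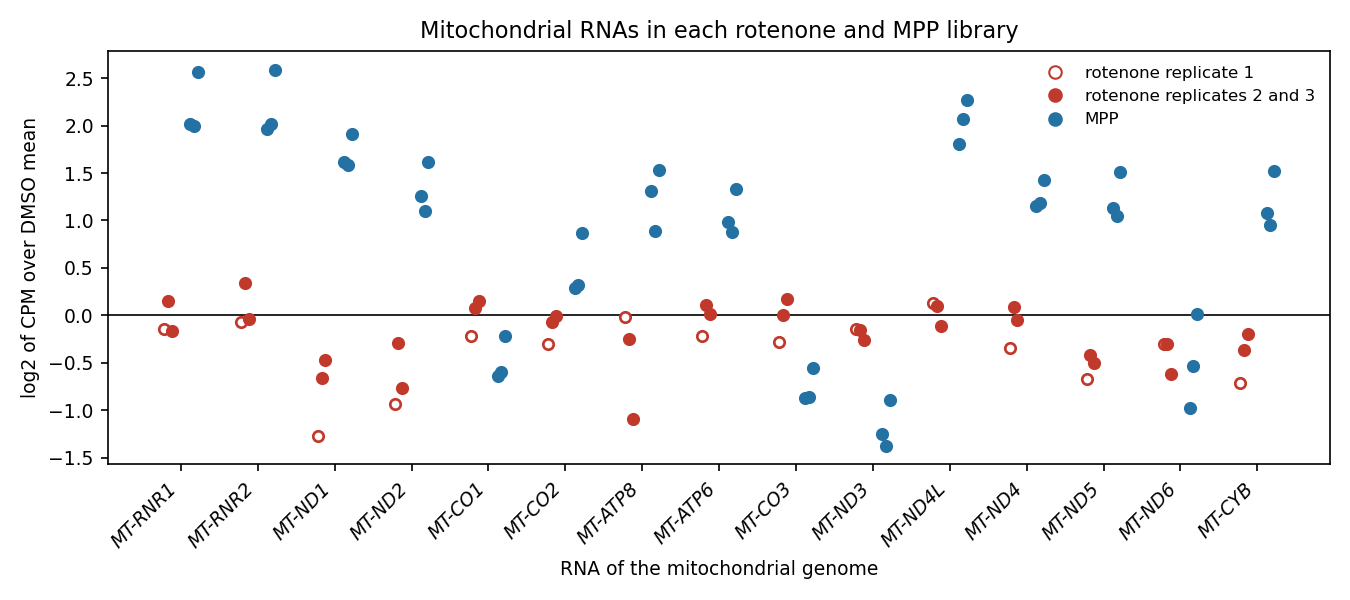
log2 of the CPM of each rotenone and MPP library over the mean of the DMSO libraries, for the 15 RNAs of the mitochondrial genome; each point is 1 library, the open circle is rotenone replicate 1, and 0 is the DMSO mean. The rotenone libraries scatter about or below 0, while MPP lies above 0 at most RNAs and below it at MT-CO1, MT-CO3 and MT-ND3.

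The nuclear genes of the same machinery moved little. Of 37 nuclear complex I subunits, NDUFA9, which stabilises the joint between the arms of the complex, fell by 0.33 (edgeR adjusted p 0.049), a call that leaving out replicate 1 ended (adjusted p 0.152). Without replicate 1 the 1 call was NDUFB4 (0.41, edgeR adjusted p 0.00936). The median of the list was 0.07. Of 20 factors of mitochondrial transcription and biogenesis 1 fell: FASTKD5, a protein of the mitochondrial RNA granule that processes non-canonical precursors, had 24.4, 25.1 and 24.1 CPM with rotenone and 40.9, 38.7 and 43.5 with DMSO. It fell by 0.74 (SE 0.1, edgeR adjusted p 2.17e-05), with the same value without replicate 1. None of 16 mitochondrial chaperones and proteases was called by edgeR with or without replicate 1, with 2 and 6 of them at an unadjusted p under 0.05 and 1 called by DESeq2.

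Targets of ATF4, the transcription factor of the integrated stress response, were divided. Of 39 tested, 2 rose and 8 fell (median -0.16), beside 2.76% of all genes in each direction. Without rotenone replicate 1, 4 rose and 9 fell. The number that fell was 5 without rotenone replicate 2 or 3 or without DMSO replicate 1 or 3. DDIT3 was at 18.8, 18.7 and 17.6 CPM with rotenone and at 7.40, 10.7 and 11.5 with DMSO (0.88, edgeR adjusted p 0.00301), and PPP1R15A, which directs the phosphatase of eIF2α, rose by 0.48 (edgeR adjusted p 0.00283). PSAT1, of serine synthesis, had 90.5, 79.5 and 87.9 CPM with rotenone and 123, 120 and 119 with DMSO, and fell by 0.49 (edgeR adjusted p 0.000321). PSPH, the last enzyme of serine synthesis, fell by 0.48 (edgeR adjusted p 0.0072) and ALDH1L2, of mitochondrial folate metabolism, by 1.01 (edgeR adjusted p 0.000206). These 3, with DDIT4, were also called without replicate 1. Compared with MPP, none of the 39 was higher in rotenone and 18 were lower, beside 3.05% and 3.69% of all genes tested. MPP itself lay above DMSO: the list summed to 5180 to 5230 CPM with MPP, 4490 to 4560 with DMSO and 4060 to 4260 with rotenone. The letters TGATG occur in 15 of 49 promoters of the list (30.6%), beside 32.9% of all promoters.

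Of 19 genes of the endoplasmic reticulum's unfolded protein response 2 rose and none fell (median 0.09), where 2.76% of all genes rose. Without DMSO replicate 2 or DMSO replicate 3 none was called. MANF, a secreted factor of the unfolded protein response with trophic effects on dopaminergic neurons, was at 100, 112 and 94.8 CPM with rotenone and 84.3, 74.0 and 73.2 with DMSO. It rose by 0.41 (edgeR adjusted p 0.0228), and by 0.42 without replicate 1. CANX, a lectin chaperone, rose by 0.24 (edgeR adjusted p 0.0429) but not without replicate 1 (0.19, adjusted p 0.112). Against MPP, 13 of the 19 were higher in rotenone and none was lower, beside 3.05% and 3.69% of all genes tested. MPP itself lay below DMSO: the list summed to 3210 to 3380 CPM with MPP, 3890 to 4140 with DMSO and 4380 to 4560 with rotenone.

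Calls among the metallothioneins, small zinc and copper binders, moved with rotenone replicate 1. Of 8 tested genes 4 rose with all libraries, and without rotenone replicate 1 edgeR called none, with 4 at an unadjusted p under 0.05. When the rotenone and DMSO groups were fitted alone without that library, an alternative added after seeing the data, 2 were called. MT2A had 10.0, 0.525 and 3.12 CPM with rotenone and 0.356, 0.606 and 0.65 with DMSO (edgeR adjusted p 0.000491, and 0.0816 without replicate 1). MT1E had 9.87, 1.15 and 1.15 CPM against 0, 0.0808 and 0.177 (adjusted p 0.00122 and 0.131), and MT1G had 18.5, 1.15 and 1.48 against 0, 0.0404 and 0.0296 (adjusted p 0.00115 and 0.122). MT1M had 2.31, 0.735 and 0.164 CPM (66 reads), and with 0 reads in DMSO it was at least 34.4-fold higher, taking 3 reads over the 3 DMSO libraries as the floor (adjusted p 0.00349, and 0.0888 without replicate 1). The median change was 4.21, or 3.43 with genes at 0 in DMSO set to that bound, and 0.88 without replicate 1. In replicates 2 and 3 MT1E and MT1G also lay above the DMSO libraries, but at 1.15 to 1.48 CPM. Metallothioneins are near-identical in sequence, so reads may have been lost or exchanged among them.

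Other stress pathways gave few calls in number, to be set beside 2.76% of all genes in each direction. Of 24 NRF2 targets, the genes of the oxidative stress response, none was called by edgeR, 4 were at an unadjusted p under 0.05 and DESeq2 called 1, and 3 rose without replicate 1. Among 16 heat shock genes 3 fell and 1 rose (median -0.05). Without replicate 1, 3 fell and 3 rose, where 4.57% of all genes fell and 4.24% rose. HSPA8, the constitutive HSP70, was at 1980, 2100 and 2080 CPM with rotenone and 2820, 2610 and 2480 with DMSO (-0.36, edgeR adjusted p 0.000565). DNAJA1, its partner, fell by 0.37, and DNAJB1 fell by 0.29 but not without replicate 1 (adjusted p 0.109). HSPA6, a strictly inducible HSP70, gave 42 reads in the rotenone libraries and 3 in the DMSO libraries, a ratio of 21.9 with an exact 95% interval of 7.0 to 110 for counting error alone. Of 23 p53 targets CDKN1A, which halts the cell cycle, rose by 0.55 (edgeR adjusted p 0.0226), CCNG1 rose by 0.41 and TIGAR, which restrains glycolysis, fell by 0.82, and the 3 were called without rotenone replicate 1 too, but CDKN1A was not called with any other of the 6 libraries left out.

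Of 19 cytoskeletal targets of SRF and YAP, factors that respond to actin assembly and tension, 4 rose, none fell and 15 were not called, at a median of 0.26, where 2.76% of all genes rose. Without replicate 1, 8 rose, where 4.24% of all genes did. CNN2, a calponin, had 9.51, 9.45 and 11.7 CPM with rotenone and 3.42, 4.52 and 3.70 with DMSO, a rise of 1.38 (edgeR adjusted p 0.000546). FHL2, a LIM domain cofactor, rose by 0.68, TPM4, a tropomyosin, by 0.38 and VCL, vinculin, by 0.32. Among 22 genes of cholesterol synthesis and uptake 3 rose and 2 fell, beside 2.76% of all genes in each direction. The rises were MSMO1 (0.53), INSIG1 (0.34) and SQLE (0.32), and the falls were LSS (-0.48) and ACAT2 (-0.39), each called with and without replicate 1. MSMO1, SQLE and LSS are enzymes of 1 pathway that moved in different directions. Of 16 immediate early genes DUSP1, a phosphatase of MAP kinases, was at 84.5, 86.6 and 89.7 CPM against 54.9, 60.2 and 58.2 and rose by 0.59 (edgeR adjusted p 0.000111). DUSP6 and IER5 fell by 0.67 and 0.43, and these calls were lost without replicate 1 (adjusted p 0.0669 and 0.0515).

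PIK3R1, the regulatory subunit of PI3-kinase, came out in the comparison with MPP. It had 127, 116 and 112 CPM with rotenone, 67.3, 66.1 and 65.7 with DMSO and 60.3, 64.9 and 71.1 with MPP. The rotenone libraries were above all of the other 21, whose highest was 84.8 CPM, and the rise was 0.83 against DMSO (edgeR adjusted p 3.88e-07) and 0.86 against MPP (edgeR adjusted p 2.55e-07).

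Of 75 cytosolic ribosomal protein genes 15 rose (20%, against 2.76% higher over all genes), none fell and 60 were not called, at a median of 0.21. The count turned on single libraries: 34 rose without rotenone replicate 1, 9 without rotenone replicate 2, and 1 each without DMSO replicate 2 and DMSO replicate 3. It was 33 with the GC offset and 3 with the 2 groups fitted alone. The called changes were small, from 0.25 to 0.64. RPL7 was at 966, 878 and 854 CPM with rotenone and 737, 659 and 676 with DMSO (0.38, edgeR adjusted p 0.00307), and RPL11 rose by 0.31. RPL26 had the highest change, 0.64, with replicate 1 at 197 CPM and the others at 137 and 138, and it was not called without replicate 1 (0.44, adjusted p 0.0786). Of the 15, 9 were called both with and without replicate 1. Ribosomal protein genes have many near-identical pseudogenes, and how reads with several matches were counted is not given in the sources used here.

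Markers of the cell type were set beside these results. Of 13 dopaminergic markers, TH, SLC6A3, RET, DRD2 and EN1 had a mean above 10 CPM in DMSO, but FOXA2 had 0 reads and ALDH1A1, LMX1B and SLC18A2 were below 1 CPM in all rotenone and DMSO libraries. SLC6A3, the dopamine transporter, had 840, 1130 and 1170 CPM with rotenone and 697, 578 and 632 with DMSO, and rose by 0.72 (edgeR adjusted p 0.000131). RET, the GDNF receptor, had 62.9, 62.9 and 62.6 CPM against 90.9, 105 and 101, and fell by 0.66 (edgeR adjusted p 0.00033). TH, which makes the precursor of dopamine, had 31.2, 40.0 and 43.5 CPM against 55.2, 51.4 and 45.9, a change of -0.42 that did not pass (edgeR adjusted p 0.0659), but passed with the GC offset (adjusted p 0.00132). In bulk RNA, fewer cells of a type and less RNA per cell cannot be told apart.

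Of 12 pan-neuronal markers RBFOX3 rose by 0.45 (edgeR adjusted p 0.0265), a call lost with any library but rotenone replicate 1 left out, and the median was 0. Without rotenone replicate 1, MAP2 was also called, as lower. NES, the intermediate filament of precursors, had 135, 164 and 166 CPM with rotenone and 90.6, 84.9 and 67.0 with DMSO, and rose by 0.94 (edgeR adjusted p 7.25e-06), and VIM rose by 0.41. SOX1 fell at a level below 1 CPM (edgeR adjusted p 0.0419, and 0.182 without replicate 1). The summed CPM of the 8 precursor markers ranged from 325 to 393 with rotenone and 266 to 278 with DMSO, with SOX2 at 0 reads in rotenone and 12 in DMSO. NES and VIM were the only members called higher. Of the 8 changes 4 were positive and 4 negative, at a median of -0.01. Mean CPM in DMSO and rotenone was 69.3 and 75.1 for NOTCH1, 47.5 and 45.8 for MSI1, 14.3 and 14.7 for PAX6, and 2.53 and 1.72 for HES1. The part of precursor cells in the results was not tested. None of 10 cycling markers was called by edgeR with all libraries, 4 were at an unadjusted p under 0.05 and DESeq2 called 1. Without replicate 1 edgeR called 1 higher, PLK1, where 4.24% of all genes were higher. With the GC offset 2 were higher, where 5.59% of all genes were. The cycling markers summed to 459 to 495 CPM with rotenone and 403 to 456 with DMSO. Of 8 tested glial markers MBP rose by 0.94 (edgeR adjusted p 0.000144) and was the only one called. The oligodendrocyte markers OLIG2 and OLIG1 had the highest means of the list. OLIG2 had 114 CPM in both groups, and OLIG1 had 43.5 in DMSO and 35.8 in rotenone. GFAP, the defining astrocyte marker, had 2 reads in DMSO and 0 in rotenone, and SOX10 had 0 in both. The list summed to 184 to 203 CPM with rotenone and 177 to 194 with DMSO.

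**Figure D5:**
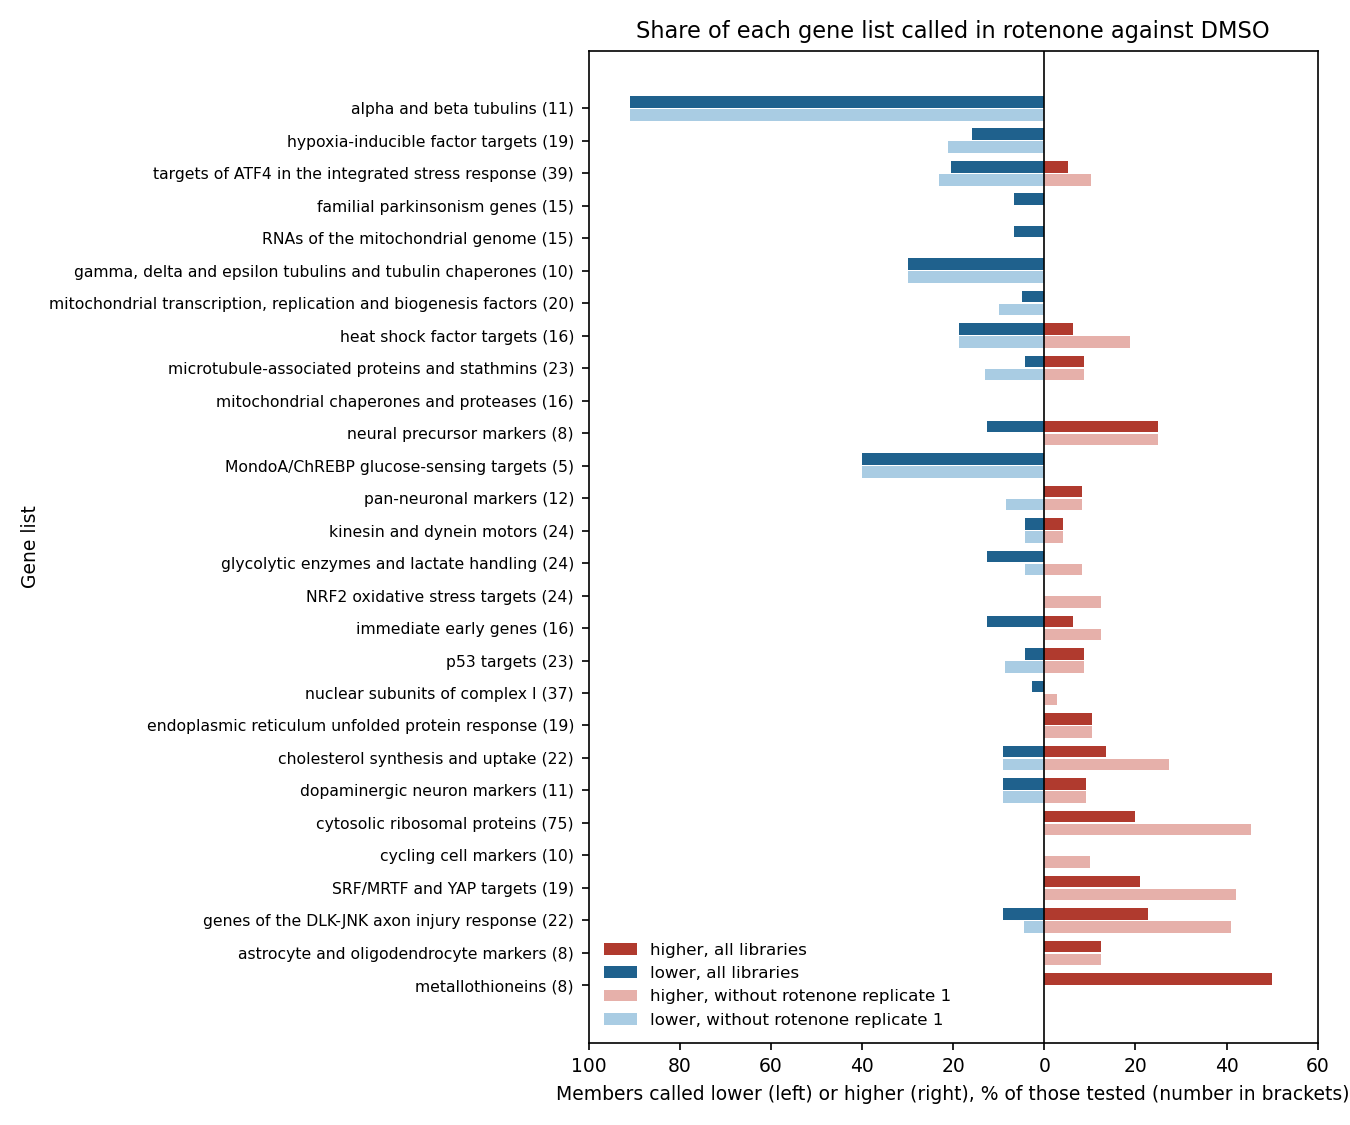
Share of the tested members of each of 28 gene lists (number tested in brackets) called lower (left) or higher (right) in rotenone against DMSO, with all libraries (dark) and without rotenone replicate 1 (light); lists are ordered by median change. Alpha and beta tubulins are called lower in 10 of 11 either way. Metallothioneins are called higher in 4 of 8 with all libraries and in none without replicate 1 in these 2 fits.

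Set directly against MPP, rotenone was higher at 575 genes (3.05%) and lower at 695 (3.69%), and 245 genes were called both here and against DMSO. The DMSO level does not enter this difference, but the DMSO libraries take part in the filter, the scaling and the pooled spread. The split of higher and lower genes was not stable to scaling: with library totals in place of TMM factors 992 were higher and 355 lower, and with the GC offset 1353 and 1023. The tubulins were lower in rotenone than in MPP at 9 of 11 genes, at a median of -0.88, and TUBA1A stood at 8710, 8460 and 8200 CPM in MPP. Its difference between rotenone and MPP was -1.28 (SE 0.08, edgeR adjusted p 1.63e-12). HRK was at 41.2, 47.3 and 43.2 CPM in MPP and higher in rotenone by 1.44 (edgeR adjusted p 1.8e-09), DUSP16 by 0.60 (edgeR adjusted p 0.000219) and JUN by 0.53 (edgeR adjusted p 0.00478). DDIT3 was lower in rotenone by 0.57 (edgeR adjusted p 0.046), a call kept in 4 of 14 alternatives and lost with each of the 6 libraries left out (0.0502 without rotenone replicate 1), with 27.4, 26.7 and 27.6 CPM in MPP. Since dose and compound both differ between these groups, they cannot be told apart.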

How the data were processed

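RNA of differentiated LUHMES neurons was sequenced on an Illumina HiSeq after polyA selection and ribosomal RNA depletion, per the labels' protocols. The deposited table holds the authors' raw read counts for 58051 genes in 24 libraries, and a normalised table beside it was not used. STAR, HTSeq, DESeq and GRCh38 are named in the submitters' processing notes; versions, annotation, and the handling of strand and of reads with several matches were not stated in these sources.

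Groups came from the titles. All 24 libraries were fitted in edgeR 4.0.16 (R 4.3.3) with filterByExpr, TMM scaling and the quasi-likelihood F test, with Benjamini-Hochberg adjustment over 18852 genes. CPM values use the TMM-scaled library. Intervals on ratios of reads cover counting error only. Alternatives were RLE size factors, library totals, no filter, DESeq2 1.42.0, the 2 groups alone, a replicate block, limma-voom 3.58.1 with quality weights, and leaving out each library. The fits with a GC content offset, and the 2 groups alone without rotenone replicate 1, were chosen after seeing the data. The edgeR script was tested on simulated counts. Positions and transcript GC content are from GENCODE 29, and 56948 of 58051 IDs matched a gene name. Rows with no gene name held 0.00492% of the counts.

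The genes and the 28 lists were chosen with earlier results of these data known. Named genes are up to 15 higher and 15 lower by fold, called with and without rotenone replicate 1, with a mean of 2 CPM or more in the group with the higher level, and without overlap; up to 6 members of each list by the smallest p; all tubulins, mitochondrial RNAs, glucose-sensing genes and metallothioneins; up to 10 genes by fold that need rotenone replicate 1; and up to 8 by the smallest p against MPP. A few list members are not reported here.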

Additional observations from a re-analysis of the deposited data

Results flagged for a closer look

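At 2 genes flagged here rotenone and MPP moved the level in opposite directions from DMSO, and the direct comparison of the 2 toxicants passed the test. They are not all such genes: MT-ND1, at -0.81 in rotenone against DMSO and -2.51 against MPP, is another. MANF was at 100, 112 and 94.8 CPM with rotenone and at 49.9, 42.7 and 48.1 with MPP, a difference of 1.13 on the log2 scale (edgeR adjusted p 6.34e-08). PSAT1 was at 90.5, 79.5 and 87.9 CPM with rotenone and at 162, 161 and 156 with MPP, a difference of -0.89 (edgeR adjusted p 1.72e-08). Both calls held without rotenone replicate 1, with adjusted p of 1.31e-07 and 4.26e-08. The DMSO libraries lay between the 2 toxicants at both genes, at 84.3, 74.0 and 73.2 CPM for MANF and 123, 120 and 119 for PSAT1.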

How the results depend on the processing

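Against DMSO, the 1041 genes became 211 with the 2 groups fitted alone, 1675 with limma-voom and quality weights, 2608 with the 2 groups alone and without rotenone replicate 1, 2067 with the GC offset and 2083 with that offset and without rotenone replicate 1. Leaving out 1 library gave 493 to 1660 genes: 1660 without rotenone replicate 1, and 631, 493 and 556 without DMSO replicates 1, 2 and 3. Against MPP, the 1270 genes became 159 with the 2 groups alone, 1961 with limma-voom and 2376 with the GC offset. Leaving out 1 library gave 528 to 2194 genes, with 2194 without rotenone replicate 1, 528 without MPP replicate 2 and 765 without MPP replicate 3. RLE factors, library totals, no filter and DESeq2 kept both counts within 1.5 times. The cause was not tested. Replicate numbers did not pair the samples: same-numbered rotenone and DMSO libraries had correlations of -0.137, 0.0608 and -0.191. With the replicate block, 890 genes were called against DMSO, 884 of them shared, and 1045 against MPP. No named gene reversed under any alternative run, and of 101 named genes called against DMSO 46 kept the call in all 16 alternatives, among them TUBA1A, HRK, JUN, DUSP16 and TXNIP. Leaving out 1 library ended between 15 and 30 of these calls, 18 without rotenone replicate 1 and 30 without DMSO replicate 2. At the lowest depth, 9.69 megareads, the values of the metallothioneins and HSPA6 rest on few reads.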
